A study of Homo sapiens with 6 samples.

Results

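The genes described here encode the nuclear subunits of oxidative phosphorylation, with cytochrome c, the complex I assembly factors of the NDUFAF series and the ATP synthase inhibitor ATP5IF1. They were chosen by gene symbol alone (NDUFA, NDUFB, NDUFC, NDUFS, NDUFV, UQCR and ATP5 prefixes, COX4 to COX8, the SDH subunits, CYC1 and CYCS). The rule gave 88 genes of the 18417 that had a row of their own on the array. Both groups were the human gastric cancer cell line YCC3, grown in adherent culture and transfected with siRNA from Dharmacon. The control group received non-targeting siRNA and the other received siRNA against CTNNB1, the gene of the Wnt pathway effector beta-catenin. RNA was taken 48 hours after transfection, and 3 arrays were measured per group. All results thus concern 1 cell line at 1 time point, and the siRNA sequence, and whether a pool was used, are not given in the labels. The labels call the samples biological replicates and do not say how or when the cultures were separated. The p-values reported therefore describe the spread among these 6 arrays, part of which may be technical.

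Oxidative phosphorylation takes place in the inner mitochondrial membrane. Complex I oxidises NADH and complex II oxidises succinate, and both pass their electrons to ubiquinone. Complex III hands them on to cytochrome c, and complex IV transfers them to oxygen. Complexes I, III and IV pump protons out of the matrix, and ATP synthase, also called complex V, uses the return flow to make ATP. Most subunits are encoded in the nucleus, and a small core set is encoded by mitochondrial DNA. In many tumour lines this system runs beside a high rate of glycolysis, and beta-catenin signalling has been linked to both.

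Values are log2 signals, so a difference of 1 is a doubling, and each difference is CTNNB1 siRNA minus control siRNA with the standard error of the limma fit. A gene is called changed where its Benjamini-Hochberg adjusted p over all 18417 genes was under 0.05. CTNNB1 itself read 11.80, 11.81 and 11.90 on the control arrays and 10.94, 11.06 and 11.20 on the CTNNB1 siRNA arrays. The difference was −0.77 ± 0.10, a change of −41.4% (95% interval −49.9% to −31.4%, adjusted p = 0.00267), so the target transcript was reduced and not removed. Epithelial markers were bright on all arrays, from 8.86 for the lowest CDH1 value to 13.7 for the highest KRT8 value. Of the 5 genes on that list only KRT18 measured lower, without overlap (−0.29 ± 0.10, adjusted p = 0.127). The other 4 measured higher, 1 of them without overlap. Over all genes 15.2% were lower and 10.8% higher without overlap. Of the other cell types' markers, the leukocyte genes PTPRC, CD3E and CD14 lay between 2.36 and 5.91 and the endothelial genes between 3.89 and 4.88. The fibroblast genes lay between 2.93 (DCN) and 6.81 (COL1A1), and the striated muscle genes between 4.59 (CKM) and 7.54 (ACTA1). No epithelial, leukocyte, endothelial, fibroblast or striated muscle marker on the lists was called.

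None of the 88 oxidative phosphorylation genes was called by limma, against 870 of all genes tested (4.72%; 382 higher and 488 lower). The smallest adjusted p was 0.0674, for CYC1. The count of 0 depended on the setting, as did the count over all genes. With a trended and robust variance prior it was 4 of 88, beside 1622 of all 18417 genes. When the dimmest 50% of all genes were left out before adjustment it was 9 of 75, beside 1861 of all genes left. Most of the 88 genes nevertheless measured slightly lower with CTNNB1 siRNA: 63 of 88 differences were below 0 (71.6%), against 48.8% over all genes. The median difference was −0.09, a change of −6.11%, against 0.0056 over all genes. Differences ran from −0.43 for ATP5F1A to 0.31 for ATP5MF, and 39 genes differed by less than 0.1 in either direction. Part of this shift was shared by bright genes in general. Without the dimmest 50% of all genes, 58.6% of the genes left were below 0, with a median of −0.047. Of the 75 oxidative phosphorylation genes among them 54 were below 0, with a median of −0.099. In RNA from a whole culture, a lower level per cell and fewer cells with the transcript cannot be told apart.

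Most of the genes were bright: 75 of the 88 had a mean over the 6 arrays above 6.56, the median of all gene means. The 13 below it were ATP5MC3, ATP5MGL, NDUFS4, NDUFAF2, NDUFAF5, NDUFAF6, UQCRB, UQCRH, COX4I2, COX6B2, COX7A1, COX7B2 and COX8C. No detection calls were used, so it is not known whether these dim signals were above background, and their differences carry that limit.

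At an unadjusted p under 0.05, 16 of the 88 genes were lower (18.2%), against 12% of all genes, and 1 was higher (1.14%), against 8.34%. The 16 were ATP5F1A, ATP5MJ, ATP5PO, ATP5PB, NDUFB10, NDUFB9, NDUFS1, NDUFS4, NDUFAB1, NDUFC1, NDUFAF2, NDUFAF4, NDUFAF7, CYC1, UQCRC2 and COX4I1, and the higher gene was ATP5MF. When the dimmest 50% of all genes were left out, 19 of 75 were lower at this level. The share of all genes left was then 22.6%, so the count was near that of other bright genes. All 3 CTNNB1 siRNA arrays lay below all 3 control arrays for 22 genes (25%), against 15.2% of all genes. The reverse order held for 2 genes (2.27%), ATP5MF and COX6B1, against 10.8% of all genes. The 95% intervals give the size of difference that the arrays leave possible. They lay within 0.5 of 0 for 71 of the 88 genes and within 1 of 0 for all 88, with the lowest bound at −0.74 for ATP5MJ and the highest at 0.56 for ATP5MF.

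**Figure D1:**
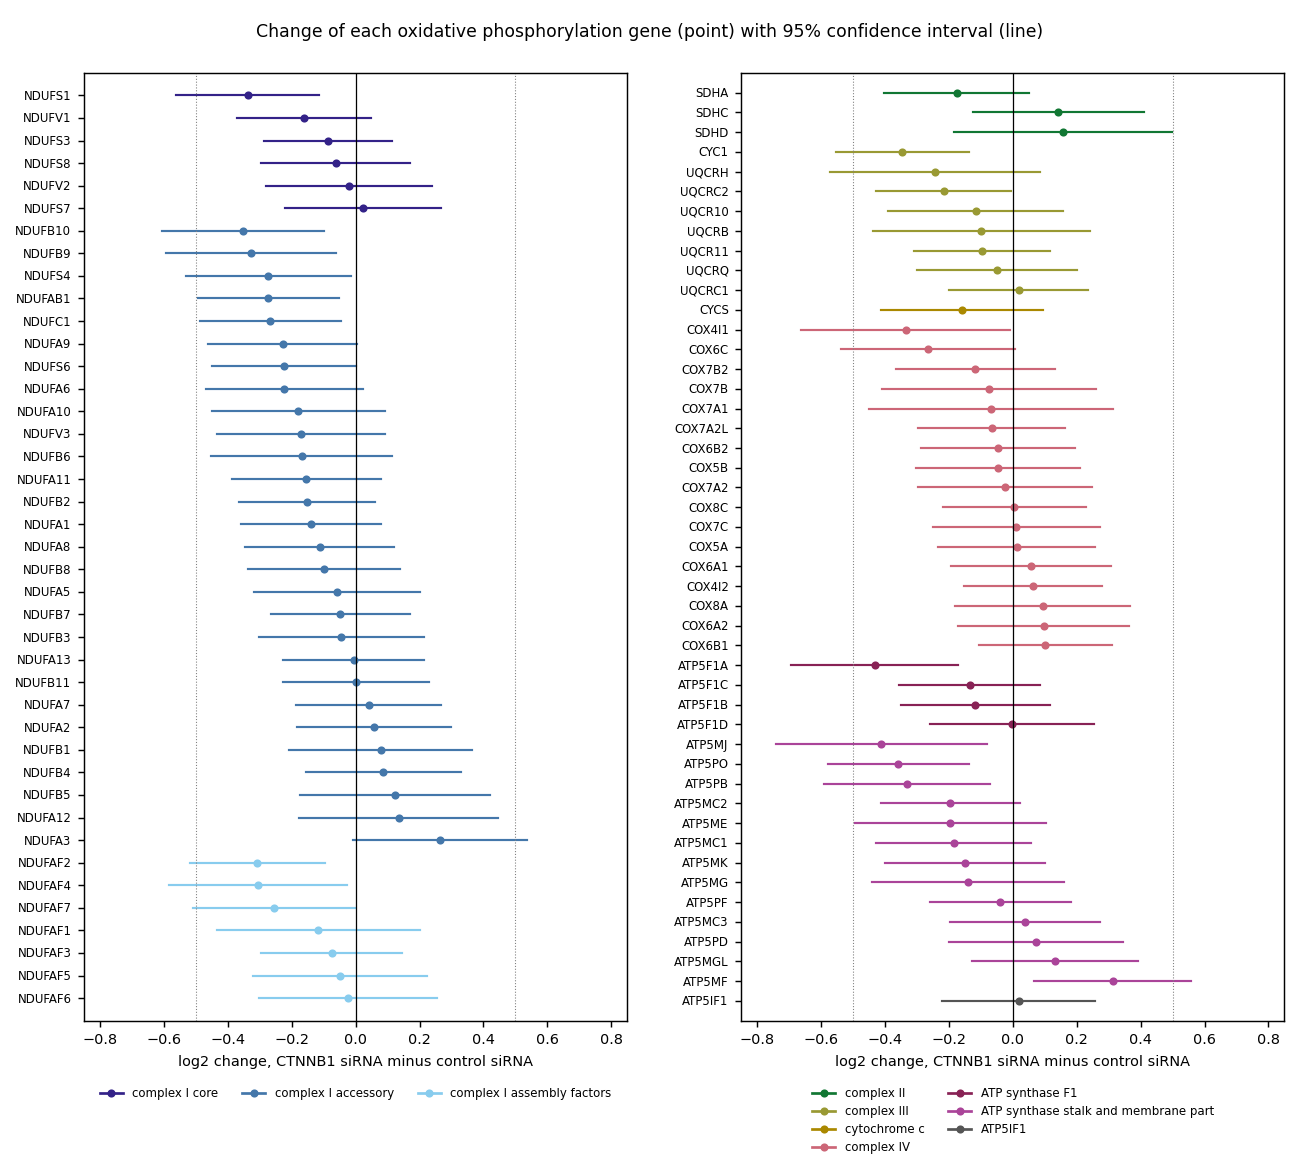
The difference in log2 signal (CTNNB1 siRNA minus control siRNA, x axis) of each of the 88 oxidative phosphorylation genes, grouped by complex, with its 95% interval from limma (n = 3 per group); dotted lines mark 0.5 in each direction. Points run from −0.43 (ATP5F1A) to 0.31 (ATP5MF), and 63 of 88 lie below 0.

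**Figure D2:**
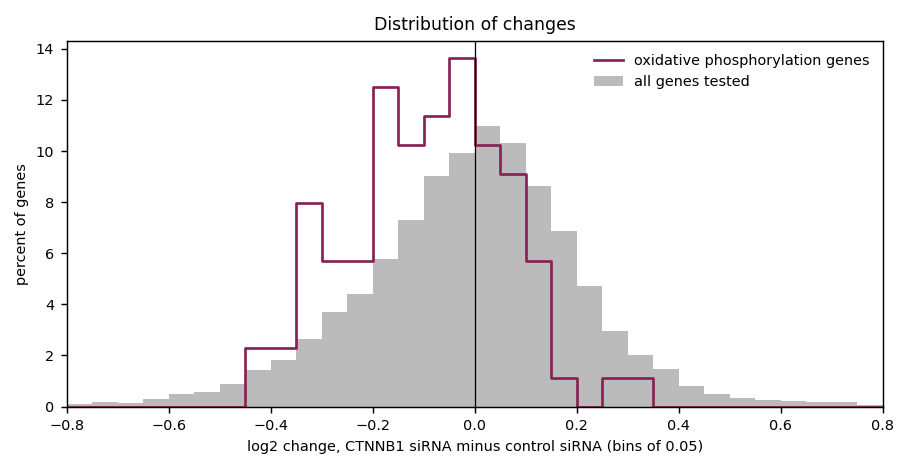
The percentage of genes (y axis) in each bin of 0.05 of the log2 difference (x axis), for all 18417 genes as filled bars and for the 88 oxidative phosphorylation genes as a line. The 88 genes lie within a narrow band around 0, with a median of −0.09 against 0.0056 for all genes.

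The arrays did not contribute evenly to these counts. Control siRNA replicate 3 was the highest of the 6 arrays for 50 of the 88 genes (56.8%), against 23.3% of all genes. CTNNB1 siRNA replicate 2 was the lowest for 30 genes (34.1%), against 22.1% of all genes. Each gene was also expressed as its deviation from its own mean over the 6 arrays. The median deviation of the 88 genes was 0.14 on control replicate 3 and −0.10 on CTNNB1 siRNA replicate 2, and between −0.03 and 0.01 on the other 4 arrays. The same median over all genes lay between −0.01 and 0.01 on every array.

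Without control replicate 3 the median difference of the 88 genes was −0.05, and 55 of 88 were below 0. The count at an unadjusted p under 0.05 was then 6 lower genes, against 8.56% of all genes. Without CTNNB1 siRNA replicate 2 the median was −0.08 with 62 of 88 below 0, and the count was again 6, against 9.56%. Over all genes, leaving out control replicate 1 or 3 gave 288 or 372 called genes, and leaving out CTNNB1 siRNA replicate 1 or 2 gave 283 or 421. What set control replicate 3 and CTNNB1 siRNA replicate 2 apart was not tested.

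**Figure D3:**
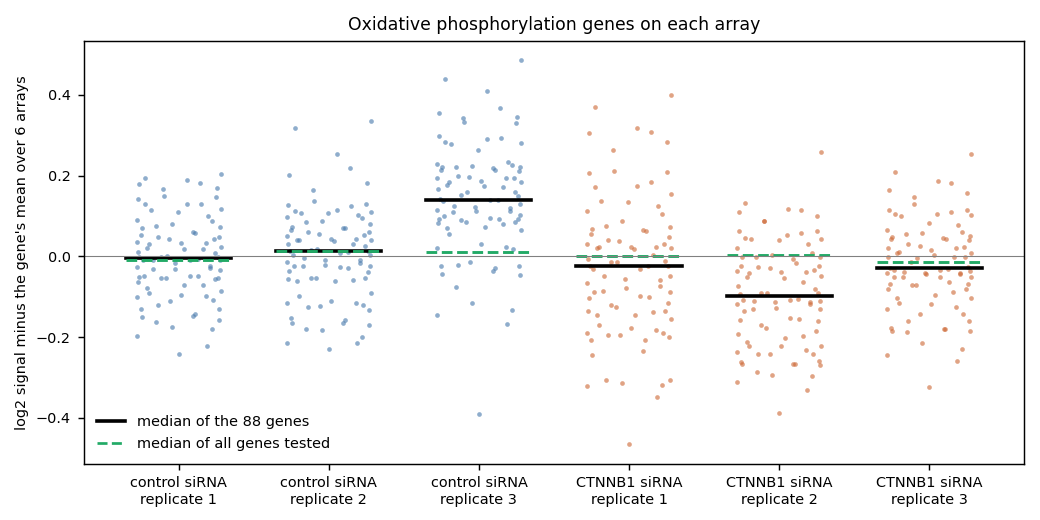
Each of the 88 oxidative phosphorylation genes as its log2 signal minus its own mean over the 6 arrays (y axis), for each array (x axis); the black mark is the median of the 88 genes and the green dashed mark the median of all genes tested. The 88 genes sit highest on control siRNA replicate 3 (median 0.14) and lowest on CTNNB1 siRNA replicate 2 (median −0.10).

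Nuclear respiratory chain genes are known targets of the transcription factors NRF1 and GABPA, so their promoters were read beside the differences. RefSeq promoters on GRCh38.p14, from 250 bases before to 50 bases after the gene start, were matched for 74 of the 88 genes. The NRF1 core CGCATGCG, on either strand, was present in 11 of the 74 (14.9%), against 456 of 15843 promoters of protein-coding genes (2.88%). The ETS motif CCGGAAG, which GABPA and other ETS factors share, was present on either strand in 20 of the 74 (27%), against 2255 of 15843 (14.2%). Both motifs were found in 4 promoters and neither in 47, and neither motif contains the other. The median difference was −0.05 for the 11 genes with the NRF1 core and −0.12 for the 63 without it. It was −0.07 for the 20 genes with the ETS motif and −0.12 for the 54 without it. A match describes the letters in this window and does not show binding.

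The promoters of NDUFS1, NDUFAF4 and COX4I1 are shown because these genes had the smallest p among the genes described in full with a motif in the window. That of SDHD, a gene whose 2 rows differed in sign, is shown because its window holds both motifs. Each runs 5′ to 3′ on the gene's own strand, and capitals mark the ETS motif (CCGGAAG or its complement CTTCCGG) and the NRF1 core (CGCATGCG).
NDUFS1, chr2:206159395-206159694, minus strand: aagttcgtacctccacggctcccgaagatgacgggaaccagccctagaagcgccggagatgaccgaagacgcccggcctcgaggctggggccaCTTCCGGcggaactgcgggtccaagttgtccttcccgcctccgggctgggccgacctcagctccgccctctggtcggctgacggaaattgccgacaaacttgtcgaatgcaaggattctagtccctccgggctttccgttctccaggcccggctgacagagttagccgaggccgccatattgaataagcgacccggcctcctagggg
NDUFAF4, chr6:96897842-96898141, minus strand: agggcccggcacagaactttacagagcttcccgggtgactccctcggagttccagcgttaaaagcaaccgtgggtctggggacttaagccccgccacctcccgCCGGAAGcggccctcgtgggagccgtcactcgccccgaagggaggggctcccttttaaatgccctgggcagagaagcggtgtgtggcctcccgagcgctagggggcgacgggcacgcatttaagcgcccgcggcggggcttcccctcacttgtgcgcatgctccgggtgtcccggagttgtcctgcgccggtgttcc
COX4I1, chr16:85799445-85799744, plus strand: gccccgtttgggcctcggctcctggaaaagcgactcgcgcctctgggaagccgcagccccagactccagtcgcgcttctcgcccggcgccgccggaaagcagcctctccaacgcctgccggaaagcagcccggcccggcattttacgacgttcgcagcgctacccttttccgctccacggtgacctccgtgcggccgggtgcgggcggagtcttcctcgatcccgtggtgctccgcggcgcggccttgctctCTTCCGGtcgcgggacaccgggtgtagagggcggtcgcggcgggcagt
SDHD, chr11:112086623-112086922, plus strand: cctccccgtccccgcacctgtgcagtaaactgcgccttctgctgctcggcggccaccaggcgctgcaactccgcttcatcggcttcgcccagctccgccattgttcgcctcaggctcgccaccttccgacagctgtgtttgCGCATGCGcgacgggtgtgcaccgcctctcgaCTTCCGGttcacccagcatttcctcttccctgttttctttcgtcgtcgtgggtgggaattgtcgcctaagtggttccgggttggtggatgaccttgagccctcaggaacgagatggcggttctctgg
The ETS motif begins 157 bases before the gene start in NDUFS1, 147 before it in NDUFAF4 and 77 before it in SDHD, and at base 3 of the transcript in COX4I1. In SDHD the NRF1 core begins 109 bases before the start, upstream of the ETS motif. NDUFS1, NDUFAF4 and COX4I1 differed by −0.34, −0.30 and −0.34 between the groups. SDHD differed by 0.16 on the row used and by −0.06 on its dimmer row, so no direction is given for it.

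Complex I, the NADH dehydrogenase, was represented by 34 subunit genes, of which 25 measured lower with CTNNB1 siRNA. The median difference was −0.11, and the range ran from −0.35 for NDUFB10 to 0.26 for NDUFA3. The 6 core subunits, which as a set, though not each of them, carry the flavin and iron-sulphur clusters, had a median of −0.07, with 5 of 6 below 0. That median was −0.02 after repeated quantile normalisation and −0.00027 after cyclic loess scaling. The 28 accessory subunits, which surround and stabilise the core, had a median of −0.13, with 20 of 28 below 0. Without control replicate 3 the accessory median was −0.07. The number of accessory genes lower at an unadjusted p under 0.05 then went from 5 to 1, against 12% and 8.56% of all genes. It was also 1 when CTNNB1 siRNA replicate 2 was dropped, against 9.56%, and 3 for control replicate 1, against 9.15%.

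Among the core subunits NDUFS1, which holds iron-sulphur clusters of the electron path, had the smallest p. Its log2 signals were 10.17, 10.15 and 10.36 on the control arrays and 9.87, 9.84 and 9.96 with CTNNB1 siRNA. The groups did not overlap, and the control arrays were the higher ones. The means were 10.23 ± 0.11 and 9.89 ± 0.07 (SD, n = 3), a difference of −0.34 ± 0.10, or −20.9% (95% interval of the log2 difference −0.56 to −0.12, adjusted p = 0.0849). NDUFV1 binds the flavin where NADH delivers its electrons. It read 10.11, 10.23 and 10.23 against 10.05, 9.95 and 10.08, again without overlap, and differed by −0.16 ± 0.09 (adjusted p = 0.388). NDUFS7, the subunit nearest to the ubiquinone site, had the highest core difference. Its arrays read 7.51, 7.57 and 7.77 in controls and 7.67, 7.74 and 7.51 with CTNNB1 siRNA, so the groups overlapped fully (0.02 ± 0.11, adjusted p = 0.934). The other 3 core genes, NDUFS3, NDUFS8 and NDUFV2, differed by −0.09, −0.06 and −0.02.

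NDUFB10, an accessory subunit of the membrane arm, had the smallest p of the accessory group. Control arrays gave 7.27, 7.51 and 7.27, and CTNNB1 siRNA arrays gave 7.03, 6.84 and 7.12. The groups were separate, with replicate 2 giving both the highest control and the lowest CTNNB1 siRNA value. The difference was −0.35 ± 0.11, or −21.7% (95% interval of the log2 difference −0.61 to −0.10, adjusted p = 0.111). NDUFAB1 is the mitochondrial acyl carrier protein, which serves both in complex I and in mitochondrial fatty acid synthesis. It read 9.21, 9.18 and 9.33 in controls and 9.06, 8.87 and 8.98 with CTNNB1 siRNA. These groups were separate too (−0.27 ± 0.10, adjusted p = 0.154). NDUFA3, a small membrane-arm subunit, lay at the other end with 10.14, 10.08 and 10.26 against 10.66, 10.25 and 10.36. Its groups overlapped only through control replicate 3 and CTNNB1 siRNA replicate 2, and the difference was 0.26 ± 0.12 (adjusted p = 0.260). It was 0.14 without CTNNB1 siRNA replicate 1 (adjusted p = 0.561).

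Each subfamily of accessory subunits had a median below 0. Of the 13 NDUFA genes (NDUFAB1 included), 9 measured lower, with a median of −0.11, or −0.06 without control replicate 3. Of the 11 NDUFB genes, 7 measured lower, with a median of −0.05, or −0.0099 without that array. The 4 remaining accessory genes, NDUFS4, NDUFS6, NDUFV3 and NDUFC1, were all lower, with a median of −0.25, or −0.20 without it. Of the accessory genes outside the naming rule, NDUFB9 differed by −0.33 (adjusted p = 0.156), NDUFC1 by −0.27 (0.162) and NDUFS4 by −0.27 (0.217; −0.18 without CTNNB1 siRNA replicate 1). These were picked out after their values were seen. The differences between subfamilies were not tested.

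Complex II, the succinate dehydrogenase, was represented by 3 of its 4 genes, of which 1 measured lower on the row used. SDHA is the flavoprotein that oxidises succinate. It read 10.65, 10.61 and 10.79 on control arrays and 10.39, 10.57 and 10.56 with CTNNB1 siRNA. All CTNNB1 siRNA values lay below the control values, by −0.18 ± 0.10 in the means (95% interval −0.40 to 0.05, adjusted p = 0.380), and by −0.12 without CTNNB1 siRNA replicate 1. SDHA has near-identical pseudogene copies, and 2 further rows shared with those copies differed by 0.10 and 0.01, so its value is uncertain.

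SDHC and SDHD anchor the enzyme in the membrane and form the ubiquinone site. SDHC read 10.29, 10.33 and 10.64 against 10.67, 10.43 and 10.59, and SDHD 9.73, 9.64 and 9.97 against 10.26, 9.65 and 9.90. In both genes the groups overlapped, CTNNB1 siRNA replicate 1 was the highest array, and control replicate 3 was the highest control. The differences were 0.14 ± 0.12 for SDHC (adjusted p = 0.563) and 0.16 ± 0.15 for SDHD (adjusted p = 0.624). Each gene had a second, dimmer row, and there the sign was the opposite. The second SDHC row differed by −0.12 and the second SDHD row by −0.06, so no direction can be given for either anchor. The median of the 3 genes, 0.14, was −0.0031 without CTNNB1 siRNA replicate 1. It was −0.12 with all 3 genes below 0 when the dimmer row stood for each gene, and 0.013 with the mean of rows.

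Complex III, the cytochrome bc1 complex, had 8 genes, of which 7 measured lower, with a median of −0.11. Without control replicate 3 the median was −0.04, with 5 of 8 below 0. CYC1 encodes cytochrome c1, the haem protein that passes electrons to cytochrome c, and had the smallest p of all 88 genes. Control arrays read 11.09, 11.20 and 11.07, and CTNNB1 siRNA arrays read 10.78, 10.83 and 10.72. The groups were well apart, with a spread within each group of 11.12 ± 0.07 and 10.77 ± 0.06 (SD, n = 3). The difference was −0.35 ± 0.09, or −21.3% (95% interval of the log2 difference −0.55 to −0.14, adjusted p = 0.0674). It was −0.37 with either control replicate 3 or CTNNB1 siRNA replicate 2 left out, so it did not rest on those arrays. Its adjusted p ranged from 0.0095 to 0.184 over the other settings tried.

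The core proteins of complex III gave different values. UQCRC2 read 11.83, 11.89 and 11.96 in controls and 11.60, 11.68 and 11.75 with CTNNB1 siRNA, without overlap (−0.22 ± 0.10, adjusted p = 0.235). UQCRC1, its partner in the matrix-facing core, read 9.68, 9.75 and 9.88 against 9.73, 9.83 and 9.80, with full overlap (0.02 ± 0.10, adjusted p = 0.946). UQCRH, the hinge protein next to cytochrome c1, differed by −0.24 ± 0.15 (adjusted p = 0.404), on a row that was among the dim ones. It has a near-identical copy, UQCRHL, from which its probes may also read signal. A brighter row shared by UQCRH, UQCRHL and GNA13 differed by −0.15, with overlapping groups. The other 4 genes, UQCR10, UQCRB, UQCR11 and UQCRQ, differed by between −0.12 and −0.05.

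CYCS encodes cytochrome c, which carries electrons from complex III to complex IV and triggers apoptosis when it leaves the mitochondrion. Its arrays read 8.67, 8.61 and 8.75 in controls and 8.63, 8.30 and 8.62 with CTNNB1 siRNA. Only CTNNB1 siRNA replicate 2 stood clearly below the rest, and the groups overlapped. The difference was −0.16 ± 0.11 (95% interval −0.41 to 0.09, adjusted p = 0.483), and −0.05 without that replicate.

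Complex IV, the cytochrome c oxidase, was the complex whose genes lay closest to 0. Of its 17 nuclear genes 9 were below 0 and 13 differed by less than 0.1, with a median of −0.02 that turned to 0.02 after cyclic loess scaling and to 0.01 without control replicate 3. COX4I1, the ubiquitous form of the largest nuclear subunit, differed most. It read 7.77, 7.88 and 8.31 in controls and 7.47, 7.71 and 7.78 with CTNNB1 siRNA. Control replicate 3 stood above all other arrays, and control replicate 1 lay just below CTNNB1 siRNA replicate 3, so the groups overlapped. The difference was −0.34 ± 0.15 (95% interval −0.66 to −0.01, adjusted p = 0.234). It was −0.18 without control replicate 3, with an adjusted p of 0.568.

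COX6C, a small subunit of the inner membrane part, followed with 10.48, 10.33 and 10.75 against 10.25, 10.17 and 10.34. Control replicate 3 was again the highest array, and control replicate 2 lay just below CTNNB1 siRNA replicate 3 (−0.27 ± 0.12, adjusted p = 0.254). The COX6C difference was −0.15 without control replicate 3 (adjusted p = 0.593). COX6B1, which faces the intermembrane space, was the only gene of the complex whose groups were separate. It read 9.51, 9.65 and 9.64 in controls and 9.68, 9.71 and 9.71 with CTNNB1 siRNA, a difference of only 0.10 ± 0.09 (adjusted p = 0.600), or 0.06 without control replicate 1.

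Several complex IV subunits have tissue forms, with one form used widely and the other in muscle, lung or testis. The widely used forms COX6A1, COX7A2 and COX8A differed by 0.06 ± 0.11, −0.02 ± 0.12 and 0.09 ± 0.12. The muscle forms COX6A2 and COX7A1 differed by 0.10 ± 0.12 and −0.07 ± 0.17. The lung form COX4I2 differed by 0.06 ± 0.10, and the testis forms COX6B2, COX7B2 and COX8C by −0.05 ± 0.11, −0.12 ± 0.11 and 0.0049 ± 0.10. COX7A2L, which helps complexes III and IV to associate, differed by −0.07 ± 0.10, and COX7B by −0.07 ± 0.15. Adjusted p lay between 0.615 and 0.986 for these 11 genes. The forms COX4I2, COX6B2, COX7A1, COX7B2 and COX8C were among the dim genes for which no detection call was available. The former NDUFA4, a complex IV subunit now named COXFA4, lies outside the symbol rule and differed by 0.13 (adjusted p = 0.623).

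ATP synthase had 17 genes, of which 13 measured lower with CTNNB1 siRNA, with a median of −0.14. Without control replicate 3 the median was −0.07 with 12 of 17 below 0, and without CTNNB1 siRNA replicate 2 it was −0.11. At an unadjusted p under 0.05, 4 of the 17 genes were lower, against 12% of all genes, and 1 was higher, against 8.34%. The 4 became 2 when either control replicate 3 or CTNNB1 siRNA replicate 2 was dropped, against 8.56% and 9.56% of all genes. The complex held both the lowest and the highest difference of all 88 genes.

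In the F1 head, which makes ATP, ATP5F1A encodes the alpha subunit. Control arrays read 10.08, 10.06 and 10.36, and CTNNB1 siRNA arrays read 9.63, 9.68 and 9.89. Control replicate 3 was the highest array, but the groups were separate without it as well. The means were 10.17 ± 0.17 and 9.74 ± 0.14 (SD, n = 3), a difference of −0.43 ± 0.12, or −25.9% (95% interval −38.2% to −11.2%, adjusted p = 0.0680). The difference was −0.34 without control replicate 3. The catalytic beta subunit ATP5F1B differed by −0.12 ± 0.11 (adjusted p = 0.592). ATP5F1C, the central shaft, read 11.44, 11.47 and 11.64 against 11.36, 11.33 and 11.44, and the groups met at 11.44 (−0.14 ± 0.10, adjusted p = 0.494). That difference was −0.07 without control replicate 3. ATP5F1D, at the foot of the shaft, read 9.14, 9.21 and 9.10 against 9.36, 9.11 and 8.97, with full overlap and a difference of −0.0032 ± 0.11 (adjusted p = 0.991).

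The peripheral stalk keeps the F1 head from turning. ATP5PO, the stalk's link to the head, read 9.50, 9.45 and 9.52 in controls and 8.99, 9.17 and 9.22 with CTNNB1 siRNA. Its control arrays were nearly equal and all lay above the CTNNB1 siRNA arrays. The difference was −0.36 ± 0.10, or −22.0% (95% interval of the log2 difference −0.58 to −0.14, adjusted p = 0.0704), and −0.34 without control replicate 3. ATP5PB, the membrane-anchored stalk subunit, was picked out after its values were seen. It read 6.98, 6.91 and 7.02 against 6.87, 6.56 and 6.48, with separate groups and a difference of −0.33 ± 0.12 (adjusted p = 0.143). The other stalk genes, ATP5PD and ATP5PF, differed by 0.07 and −0.04.

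In the membrane part, ATP5MF and ATP5MJ lay at opposite ends. ATP5MF encodes the f subunit of the proton channel region. Control arrays read 9.30, 9.39 and 9.47, and CTNNB1 siRNA arrays read 9.87, 9.54 and 9.70. Every CTNNB1 siRNA array was above every control array, which held for only COX6B1 besides, and the difference was 0.31 ± 0.11, or 24.2% (95% interval of the log2 difference 0.07 to 0.56, adjusted p = 0.142). ATP5MJ, a small proteolipid of the membrane part, read 8.61, 8.48 and 8.77 against 7.95, 8.15 and 8.53. CTNNB1 siRNA replicate 3 lay above control replicate 2, so the groups overlapped, and the difference was −0.41 ± 0.15 (95% interval −0.74 to −0.08, adjusted p = 0.150). Without CTNNB1 siRNA replicate 3 ATP5MJ differed by −0.57 and was called, with an adjusted p of 0.0386.

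The rotating c ring, through which the protons pass, is encoded by 3 genes that give the same mature protein behind different import sequences. They differed by −0.19 ± 0.11 for ATP5MC1 (adjusted p = 0.385), −0.20 ± 0.10 for ATP5MC2 (0.297) and 0.04 ± 0.11 for ATP5MC3 (0.877). The ATP5MC1 difference was −0.10 without control replicate 3. Only ATP5MC2 had separate groups, at 8.45, 8.58 and 8.62 against 8.43, 8.36 and 8.27. ATP5IF1, the small protein that blocks ATP hydrolysis by the enzyme, read 7.02, 7.08 and 6.86 against 6.86, 7.11 and 7.05. Its groups overlapped, and the 95% interval of the difference was −0.22 to 0.26 (0.02 ± 0.11, adjusted p = 0.951).

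The NDUFAF proteins build complex I without staying in it. All 7 measured lower with CTNNB1 siRNA, with a median of −0.12. Without control replicate 3 the median was −0.06 and 5 of 7 were below 0, and without CTNNB1 siRNA replicate 2 it was −0.07 and again 5 of 7. NDUFAF2, which binds a late assembly intermediate, read 6.56, 6.54 and 6.60 in controls and 6.35, 6.17 and 6.25 with CTNNB1 siRNA. The groups were separate, and the difference was −0.31 ± 0.09, or −19.2% (adjusted p = 0.0967). NDUFAF4 read 8.09, 7.80 and 8.23 against 7.86, 7.65 and 7.70. Control replicate 2 lay below CTNNB1 siRNA replicate 1, and the difference was −0.30 ± 0.13 (adjusted p = 0.205). NDUFAF6 had the highest difference of the 7. It read 6.51, 6.48 and 6.60 against 6.72, 6.25 and 6.54, with full overlap (−0.02 ± 0.12, adjusted p = 0.943).

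The wider machinery around the complexes was read off the same fit. Of 44 listed assembly factors outside the symbol rule 38 were measured, and 2 fell while none rose, against 4.72% of all genes called in either direction. COA7, which takes part in complex IV assembly, read 8.10, 8.07 and 8.15 in controls and 7.50, 7.58 and 7.68 with CTNNB1 siRNA. BCS1L, which inserts the iron-sulphur protein into complex III, read 8.42, 8.29 and 8.54 against 7.80, 7.73 and 8.02. In both genes all CTNNB1 siRNA arrays lay below all controls. The differences were −0.52 ± 0.10 for COA7, or −30.4% (adjusted p = 0.0142), and −0.57 ± 0.11 for BCS1L, or −32.6% (adjusted p = 0.0205). The list of 38 had a median of −0.15 with 32 below 0, and −0.08 with 32 below 0 without control replicate 3. Neither call held with every array left out in turn. For COA7 the adjusted p was 0.0680 when control replicate 1 was dropped, 0.0565 for control replicate 3 and 0.0680 for CTNNB1 siRNA replicate 1. For BCS1L it was 0.0886 and 0.0843 when control replicate 1 or 3 was dropped, and 0.0914 and 0.0706 for CTNNB1 siRNA replicate 1 or 2.

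All 16 listed regulators of mitochondrial gene expression were measured, and 2 fell while none rose, beside the same 4.72% of all genes. LRPPRC, which stabilises mitochondrial mRNAs, read 11.07, 10.97 and 10.90 in controls and 10.30, 10.29 and 10.53 with CTNNB1 siRNA. TWNK, the helicase that unwinds mitochondrial DNA for replication, read 6.78, 6.69 and 6.88 against 6.17, 6.26 and 6.44. The groups were separate in both, and the TWNK signal lay near the median gene mean of 6.56, where no detection call was available. The differences were −0.61 ± 0.11 for LRPPRC, or −34.3% (adjusted p = 0.0116), and −0.49 ± 0.11 for TWNK, or −28.9% (adjusted p = 0.0293). These calls also ended with some arrays left out. For LRPPRC the adjusted p was 0.0666 when control replicate 1 was dropped and 0.0641 for CTNNB1 siRNA replicate 1. For TWNK it was 0.114 and 0.106 when control replicate 1 or 3 was dropped, and 0.119 and 0.0853 for CTNNB1 siRNA replicate 1 or 2. The median of the 16 was −0.13, with 15 below 0.

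The factors that bind the motifs above were not called: NRF1 differed by −0.12 ± 0.09 (adjusted p = 0.514) and GABPA by −0.18 ± 0.13 (0.466). GABPA had 2 rows, and its value is from the brighter. With the dimmer row standing for each gene, 14 of the 16 regulators were below 0, against 15 as reported. The co-activator PPARGC1A differed by −0.04 ± 0.12 (0.881). These 3 were picked out for the promoter motifs after their values were seen. The mitochondrial DNA packaging and transcription factor TFAM differed by −0.30 ± 0.13 (0.246).

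**Figure D4:**
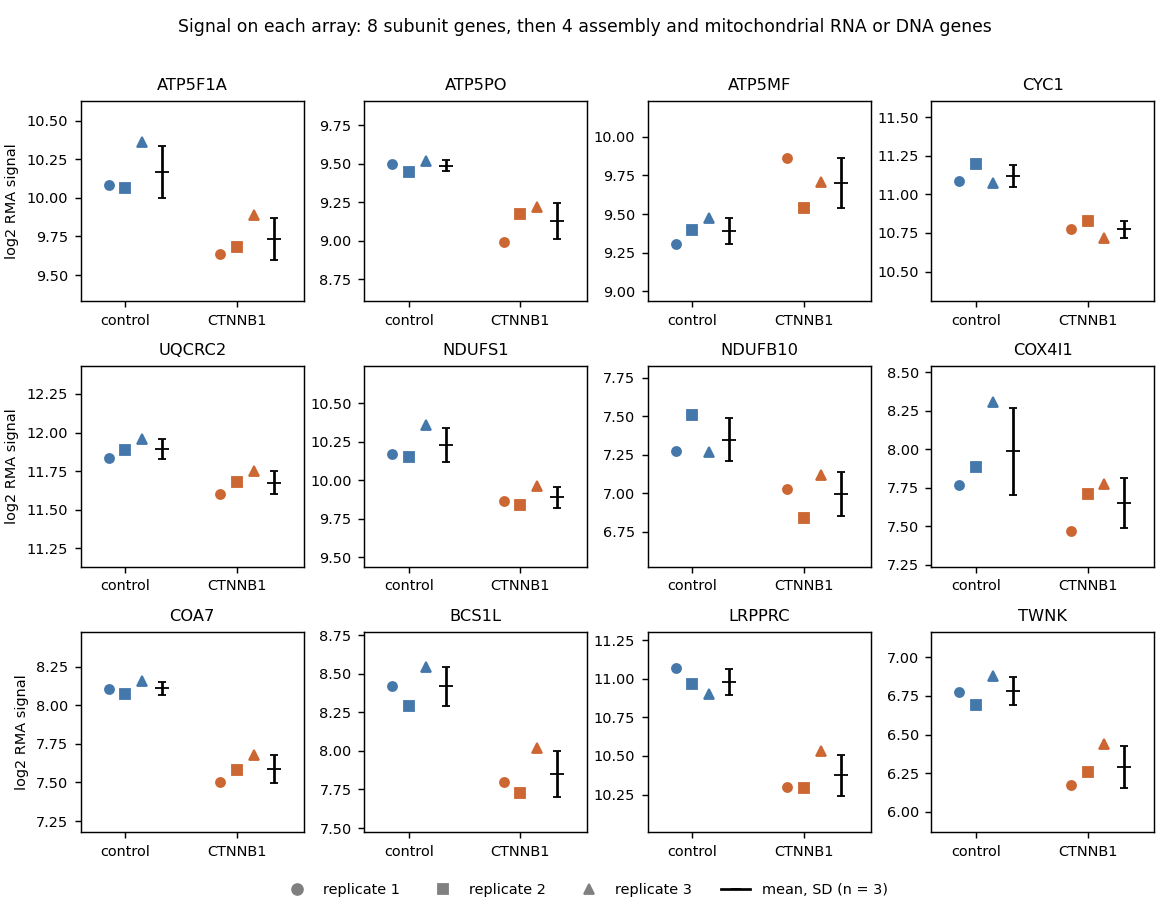
The log2 signal (y axis) on each array for 12 genes, by group (x axis); circles, squares and triangles are replicates 1, 2 and 3, and the black marks are the mean ± SD (n = 3). The groups are separate in every panel except COX4I1, with CTNNB1 siRNA the lower group in all of these but ATP5MF. The 12 genes were chosen by their p-values or differences, so their separation is no separate result. Over all genes 15.2% were separate with CTNNB1 siRNA lower and 10.8% with it higher.

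The pathways that feed the chain gave no gene called by limma, with 3 of 16 genes of the citric acid cycle list and 1 of 6 carriers and channels lower at an unadjusted p under 0.05, against 12% of all genes. Of 18 listed genes of the citric acid cycle and pyruvate entry 16 were measured, with 11 below 0 and a median of −0.11, or −0.03 with 8 below 0 without control replicate 3. Citrate synthase, CS, the entry enzyme of the cycle, differed by −0.29 ± 0.10 (adjusted p = 0.127), and malate dehydrogenase MDH2 by −0.26 ± 0.09 (adjusted p = 0.140). Of 7 listed carriers and channels 6 were measured, with 3 below 0 and a median of −0.08. The phosphate carrier SLC25A3, which supplies ATP synthase, differed by −0.25 ± 0.10 (adjusted p = 0.167), and the outer membrane channel VDAC3 by −0.21 ± 0.11 (adjusted p = 0.321), or −0.13 without CTNNB1 siRNA replicate 2. The 13 subunit genes of mitochondrial DNA were not analysed here.

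Some genes could be read more than once. Of the 88 genes 8 had a second row, and for NDUFB4 both rows held identical values. The sign agreed between rows for NDUFAF2 (−0.31 and −0.26), ATP5MK (−0.15 and −0.16), NDUFS4 (−0.27 and −0.03), NDUFV2 (−0.02 and −0.0023) and COX6A1 (0.06 and 0.01), and differed for SDHC and SDHD. NDUFS5, NDUFC2 and ATP5F1E had no row with a single symbol, and the rows they share with other genes differed by −0.18, −0.26 and −0.16 with overlapping groups. SDHB, UQCRFS1, UQCRHL and NDUFAF8 were not analysed as genes of their own here.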

How the data were processed

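YCC3 cells under control siRNA or CTNNB1 siRNA (3 arrays each) were measured on Affymetrix Human Gene 1.0 ST arrays. The authors deposited log2 signals; RMA and Affymetrix Expression Console 1.1 are named in the submitters' processing notes. RMA scales the arrays to one distribution, so a change shared by most genes is not visible. The authors' build and annotation version were not given in the sources used here. Precision rests on the number of arrays.

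Of 33297 rows, 19460 had 1 symbol in the platform annotation, 1754 had several and 12083 were not named. The brightest row stood for each of 18417 genes. Left out of the rule's matches were 2 pseudogenes (ATP5F1EP2 and UQCRBP1, differing by −0.12 and 0.14) and the noncoding NDUFV1-DT (0.07). The test was limma 3.58.1 under R 4.3.3 (two-sided, lmFit and eBayes, no block, no dim filter, Benjamini-Hochberg over all genes, threshold 0.05). Array pairs within a group were not identical (SD of the difference 0.203 to 0.262), and the fit was tested on simulated data. The members and lists were chosen with earlier results of these data known.

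Given in full are, in each section of the machinery, the 2 members with the smallest p and the one with the highest difference; isoform families and the c ring are given by difference; of the other lists, called genes and the 2 with the smallest p. Other names were chosen after their values were seen. Alternatives were other scalings, filters, variance settings, row rules, a replicate block, another threshold and leaving out each array.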

Additional observations from a re-analysis of the deposited data

How the results depend on the processing

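With 3 arrays per group the median standard error was 0.11 over the 88 genes, which limits what could be called. Their median difference stayed below 0 under each setting tried, from −0.13 to −0.05 with 1 array left out, −0.07 after repeated quantile normalisation, −0.10 after median centring and −0.04 after cyclic loess. Cyclic loess also brought NDUFV1, SDHA, UQCRC2, CYCS, ATP5F1C, ATP5MC1, ATP5MC2 and VDAC3 closer to 0 by over 1.5 times, with UQCRC2 at −0.13 and ATP5F1C at −0.06. Called genes among the 88 (0 as reported) numbered 4 of 85 without the dimmest 25% of genes, 9 of 75 without the dimmest 50% (8 lower and ATP5MF higher), 4 with a trended and robust prior, 2 with array weights, 5 at an adjusted p of 0.10, and 0 to 1 with 1 array left out. The 4 were ATP5F1A, ATP5PO, CYC1 and NDUFS1 in both cases. The dim filters and the threshold change how many genes are tested or pass; for the other settings the cause was not tested. The unadjusted count of 16 lower genes ranged from 6 to 17 with 1 array left out, while the share over all genes ranged from 8.56% to 12.5%.

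Over all genes the 870 calls became 1483 and 1861 under these filters, 1622 with the prior and 1209 with array weights. They became 111 without variance moderation, 1668 at 0.10 and 283 to 877 with 1 array left out. The share of calls that were higher was 43.9% as deposited and 56.3% after cyclic loess. The 2 called assembly factors of 38 became 7 of 38 and 7 of 35 under the 2 filters, 6 with the prior and 4 with array weights. They became 0 without moderation, 7 at 0.10 and 0 to 3 with 1 array left out. The calls over all genes rose under the same filters, prior, weights and threshold, so these rises are not particular to assembly factors. The 2 called regulators became 0 without moderation and 0 to 2 with 1 array left out. CTNNB1 was called in 16 of 17 other settings, and not without moderation (adjusted p = 0.0660).

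The replicate numbers paired the arrays only in part: deviations of same-numbered arrays correlated at −0.02, 0.33 and 0.22. In both groups the arrays of replicates 2 and 3 correlated best with their own number, and those of replicate 1 did not. A pairing is thus neither shown nor excluded, and the main fit used no block. With the number as a replicate block, 1 of the 88 genes was called (ATP5F1A, adjusted p = 0.0320), 5 assembly factors and 1177 of all genes.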
